A study of Mus musculus with 4 samples.

Results

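The 9 genes described here encode enzymes of the citric acid cycle: Cs, Idh3a, Idh3b, Idh3g, Ogdh, Dlst, Suclg1, Fh1 and Mdh2. They were followed in mouse de-differentiated fat (DFAT) cells, fibroblast-like cells derived from mature fat cells that have lost their lipid. The members were taken by name: every probe set whose only platform gene symbol was one of the 9 was used, which gave 22 of the 45101 probe sets and 9 of the 18193 genes with a named probe set. The rule uses gene symbols and no signal values, but the 9 names were chosen with earlier results of these data known.

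Total RNA was hybridised to 4 Affymetrix mouse arrays, 1 per group. The first group was DFAT cells given DMSO, the solvent control, and the second was DFAT cells given Y-27632, an inhibitor of the ROCK kinases, which drive actomyosin contraction. The third was DFAT cells transfected with a control siRNA, and the fourth was DFAT cells transfected with an siRNA against Mkl1, which encodes the actin-regulated SRF coactivator now listed as Mrtfa. All groups were DFAT cells maintained in DMEM with serum; the labels give no dose, time, genotype or number of cultures, nor any inducer of fat cell formation. With 1 array per group there is no replicate error and no p-value, and precision is limited by the number of arrays.

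The citric acid cycle runs in the mitochondrial matrix and oxidises acetyl-CoA, passing electrons to the respiratory chain. Citrate synthase (Cs) joins acetyl-CoA to oxaloacetate. Isocitrate dehydrogenase then forms alpha-ketoglutarate, and the alpha-ketoglutarate dehydrogenase complex forms succinyl-CoA. Succinyl-CoA ligase, succinate dehydrogenase, fumarase and malate dehydrogenase return the carbon to oxaloacetate. In fat cells the cycle also supplies citrate, which leaves the mitochondrion as the carbon source for fatty acid synthesis, and pyruvate carboxylase replaces the oxaloacetate that is drawn off.

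The start regions of 4 members are shown. Idh3b and Idh3g are subunits of 1 enzyme, Fh1 was the member closest to the median pattern over the arrays, and Cs was the farthest from it. Each sequence covers 250 bases before and 10 bases after the RefSeq transcript start on GRCm38.p6, from 5′ to 3′ on the strand of the gene, and capitals mark the letters CGGAAG or their reverse complement CTTCCG, the core read by GABP and other ETS factors.
Idh3b, chr2:130284442-130284701, minus strand: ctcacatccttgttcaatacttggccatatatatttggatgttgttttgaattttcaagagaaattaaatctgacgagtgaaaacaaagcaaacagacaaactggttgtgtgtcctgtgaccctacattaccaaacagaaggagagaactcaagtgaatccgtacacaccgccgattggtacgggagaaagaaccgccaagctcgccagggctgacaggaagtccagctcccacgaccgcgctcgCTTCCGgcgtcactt
Idh3g, chrX:73786888-73787147, minus strand: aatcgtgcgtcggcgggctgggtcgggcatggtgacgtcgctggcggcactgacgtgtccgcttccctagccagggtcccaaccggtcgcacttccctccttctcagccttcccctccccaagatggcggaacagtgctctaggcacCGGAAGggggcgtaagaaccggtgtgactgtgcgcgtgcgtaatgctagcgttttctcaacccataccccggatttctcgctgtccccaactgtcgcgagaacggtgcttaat
Fh1, chr1:175625626-175625885, minus strand: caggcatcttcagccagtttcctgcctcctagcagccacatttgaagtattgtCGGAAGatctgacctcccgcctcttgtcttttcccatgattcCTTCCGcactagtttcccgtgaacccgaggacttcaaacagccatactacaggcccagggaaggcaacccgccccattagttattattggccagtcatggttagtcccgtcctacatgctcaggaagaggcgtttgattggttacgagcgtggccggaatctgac
Cs, chr10:128337477-128337736, plus strand: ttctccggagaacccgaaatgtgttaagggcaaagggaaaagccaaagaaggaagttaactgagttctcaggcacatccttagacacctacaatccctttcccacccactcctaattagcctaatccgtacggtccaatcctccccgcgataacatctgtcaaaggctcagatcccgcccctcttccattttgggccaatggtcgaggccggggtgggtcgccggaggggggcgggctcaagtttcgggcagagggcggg

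The RefSeq promoter table held 13 windows of 300 bases for 8 of the 9 genes, 6 of them for Ogdh, some of which overlap; Idh3a is named only. The letters CGGAAG were found on either strand in windows of 6 of the 8 genes (Idh3b, Idh3g, Ogdh, Dlst, Fh1 and Mdh2), against 34.9% of the 9356 analysed genes with a window and 18.8% of all 27025 genes with one. Fh1 held them at 2 places, with first bases at -197 and -155 relative to the start. Cs and Suclg1 held none in these windows. Suclg1 was nevertheless among the members with both treated arrays above both control arrays, and Ogdh, which held the letters, was not. Whether these letters go with the order of the arrays was not tested. The GC box GGGCGG was found in 5 of the 8 genes, against 68.7% of analysed genes, and CCAAT in 4, against 43.0%. TGCGCA, a part of the NRF1 site, was found for Ogdh and Mdh2, against 15.9% of analysed genes. AAGGTCA, a half-site read by ERR receptors, was found for Ogdh alone among the 8, against 3.81%, and TATAAA was found for none, against 8.92%. These searches covered both strands, none of the CGGAAG matches in the 4 printed regions overlapped another searched motif, and a match describes letters and is not a bound site. The median GC content of the 13 windows was 59.7%, and that of the 11974 windows of analysed genes was 60.7%.

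Values are log2 signals made by the authors with RMA, which corrects background, quantile-normalises the arrays and summarises probes into probe sets, so a difference of 1 is a 2-fold ratio. A gene is represented by its probe set of highest mean signal, and the 11600 genes that reached 5.69, the median of all signals, on at least 1 array were analysed. All 9 members passed, as did 20 of their 22 probe sets. A probe set of Idh3b and a probe set of Dlst stayed below that level on all 4 arrays. A gene was counted as different from 1.5-fold upward, and a control siRNA minus DMSO difference was computed as background. The knockdown target Mrtfa had log2 signals of 8.32 with DMSO, 8.18 with Y-27632, 8.55 with control siRNA and 7.70 after the knockdown, which is a ratio of 0.554 between the siRNA arrays. Signals of different genes are not set against each other, since probe sets differ in brightness.

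With Mkl1 siRNA, 8 of the 9 members stood above control siRNA, with a median difference of 0.49, while the median of all analysed genes was 0.00 and 50.1% of them were above 0. The members ranged from -0.07 for Cs to 0.90 for Idh3a, and 2 of 9, Idh3a and Idh3g, were at least 1.5-fold higher, against 5.42% of analysed genes. With Y-27632, all 9 stood above DMSO, against 50.4% of analysed genes, but by less: the median was 0.15, the range 0.09 to 0.37, and no member reached 1.5-fold, against 3% of analysed genes. In neither comparison was a member 1.5-fold lower, against 5.91% and 1.33% of analysed genes. No member reached a 2-fold difference in either comparison, where 1.79% of analysed genes were at least 2-fold higher with the knockdown and 1.27% with the inhibitor.

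**Figure D1:**
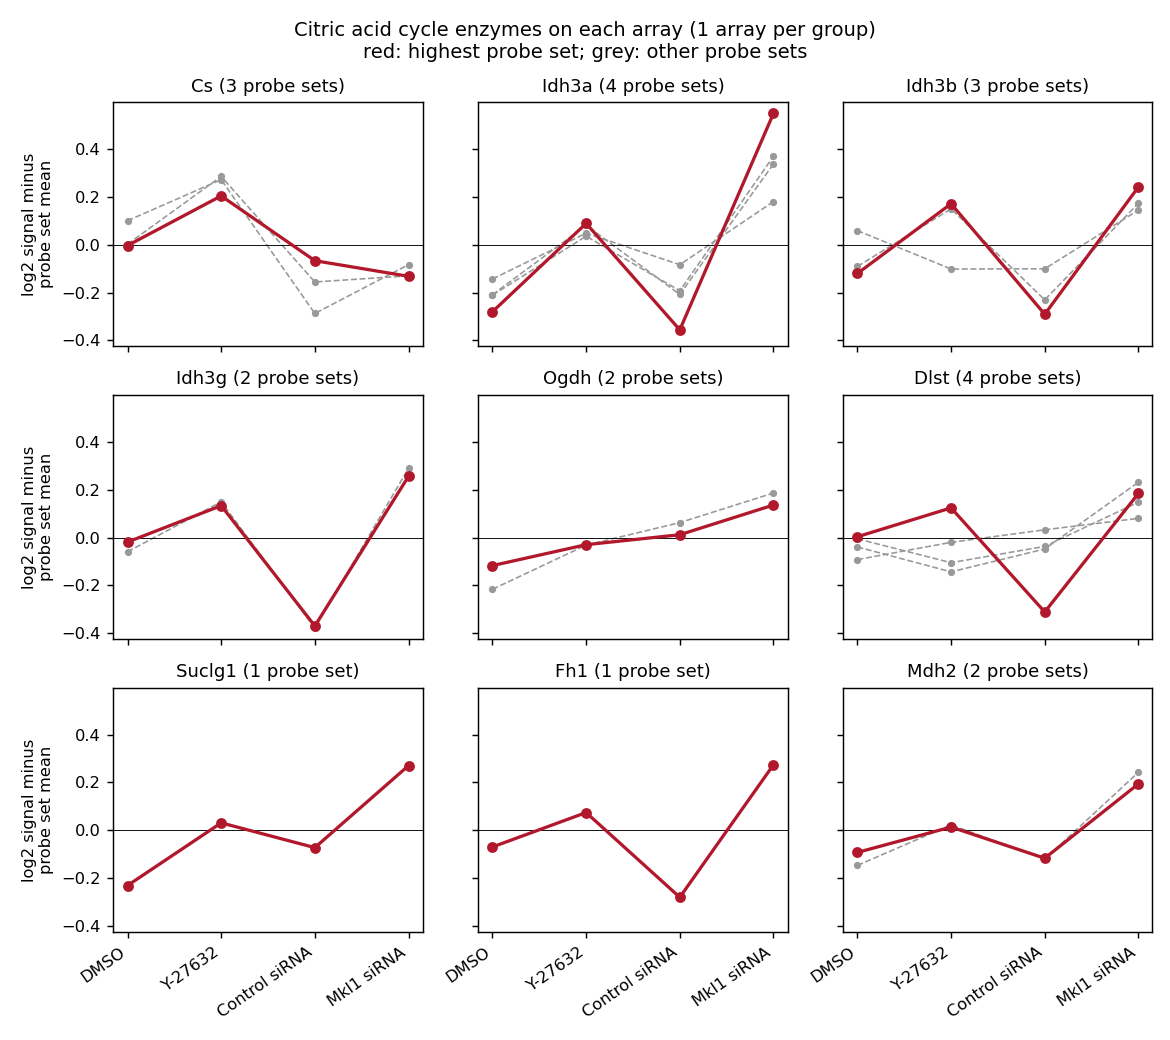
Log2 signal of each probe set on the 4 arrays minus its own mean over the arrays, 1 panel per gene; red is the probe set of highest mean, grey the others, and lines only join the values of 1 probe set. Idh3a, Idh3b, Idh3g, Dlst, Fh1 and Mdh2 share an order of the arrays that peaks with Mkl1 siRNA in the red points. Ogdh and Suclg1 also peak there, in other orders, whereas Cs peaks with Y-27632.

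The order of the arrays was shared by most members. Both treated arrays stood above both control arrays for 7 of 9 (Idh3a, Idh3b, Idh3g, Dlst, Suclg1, Fh1 and Mdh2), against 17.2% of analysed genes. For the same 7, Mkl1 siRNA was highest and Y-27632 next, an order found in 11.9% of analysed genes. Control siRNA was the lowest array for 6 of 9, against 25.7%. These orders rest on single arrays, so neighbours in an order cannot be separated from the spread between cultures.

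Cs, which opens the cycle and is widely used as a marker of mitochondrial content, had log2 signals of 12.35 with DMSO, 12.56 with Y-27632, 12.29 with control siRNA and 12.22 with Mkl1 siRNA. The Y-27632 array was the highest and the Mkl1 siRNA array the lowest, in contrast to the other members. Cs was thus higher by 0.21 with the inhibitor, a ratio of 1.15, and differed by -0.07 with the knockdown, a ratio of 0.956. Its 3 probe sets all had their highest value with Y-27632, at 0.17 to 0.28 above DMSO, and all stood below DMSO with Mkl1 siRNA, by -0.18 to -0.13. They did not share a sign against control siRNA, where they ran from -0.07 to 0.20. Control siRNA was below DMSO on all 3, by -0.39 to -0.06. The direction for Cs with the knockdown was thus the same on all 3 against DMSO and depended on the probe set against control siRNA.

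The NAD-dependent isocitrate dehydrogenase is built from a catalytic alpha subunit, Idh3a, with the subunits beta and gamma, Idh3b and Idh3g, which take part in its regulation. Idh3a had log2 signals of 10.83 with DMSO, 11.20 with Y-27632, 10.75 with control siRNA and 11.66 with Mkl1 siRNA. Both treated arrays lay above both controls, which were 0.08 apart. Idh3a was higher by 0.90 with the knockdown, a ratio of 1.87, and 2.29% of analysed genes had a larger difference. With the inhibitor it was higher by 0.37, a ratio of 1.29, with 6.58% of genes above it, and in both comparisons it was the furthest up of the 9. All 4 Idh3a probe sets agreed in sign, at 0.26 to 0.90 with the knockdown and 0.19 to 0.37 with the inhibitor; the widest difference came from the probe set of highest signal and the narrowest from the weakest.

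Idh3b had log2 signals of 11.27 with DMSO, 11.56 with Y-27632, 11.10 with control siRNA and 11.63 with Mkl1 siRNA, again with both treated arrays on top. It was higher by 0.53 with the knockdown, a ratio of 1.45, and by 0.29 with the inhibitor. Idh3g had 11.29 with DMSO, 11.44 with Y-27632, 10.94 with control siRNA and 11.56 with Mkl1 siRNA. Its control siRNA array stood apart from the other arrays, 0.35 below DMSO. The Idh3g difference of 0.62 with the knockdown, a ratio of 1.54, was therefore 0.27 when Mkl1 siRNA was set against DMSO, short of 1.5-fold. Both Idh3g probe sets gave nearly the same values, at 0.62 and 0.67 with the knockdown and 0.15 and 0.21 with the inhibitor. For Idh3b the pair of strong probe sets stood at 0.40 and 0.53 with the knockdown, and the weak probe set, below the filter, at 0.24. With the inhibitor the strong pair stood at 0.24 and 0.29 and the weak probe set at -0.16, on the other side of 0.

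The alpha-ketoglutarate dehydrogenase complex takes its first enzyme from Ogdh, its succinyl-transferring core from Dlst and its last enzyme from Dld, which is shared with pyruvate dehydrogenase. Ogdh had log2 signals of 8.66 with DMSO, 8.75 with Y-27632, 8.79 with control siRNA and 8.91 with Mkl1 siRNA. These arrays lay within 0.25 of each other, the narrowest range of the 9 members. Ogdh was higher by 0.12 with the knockdown and 0.09 with the inhibitor, both no larger than the 0.13 between the control arrays, and Y-27632 stood below control siRNA by -0.04. Dlst had 10.27 with DMSO, 10.39 with Y-27632, 9.96 with control siRNA and 10.45 with Mkl1 siRNA. As for Idh3g, the control siRNA array was the low one, by -0.31 against DMSO, so that the Dlst difference of 0.49 with the knockdown was 0.18 against DMSO. The other 3 Dlst probe sets were weak, between 5.22 and 7.39, and ran from -0.10 to 0.07 with the inhibitor and from 0.05 to 0.28 with the knockdown. The mean of the 4 Dlst probe sets gave -0.0028 with the inhibitor.

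Suclg1 encodes the alpha subunit common to the ATP-forming and GTP-forming succinyl-CoA ligases. Its log2 signal was 11.01 with DMSO, 11.28 with Y-27632, 11.17 with control siRNA and 11.51 with Mkl1 siRNA. Both controls were again below both treated arrays, but here control siRNA was above DMSO, by 0.16. Suclg1 was higher by 0.34 with the knockdown, a ratio of 1.27, and by 0.26 with the inhibitor; against control siRNA the Y-27632 array was higher by 0.10.

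Fh1, the fumarase that hydrates fumarate to malate, had log2 signals of 10.93 with DMSO, 11.07 with Y-27632, 10.72 with control siRNA and 11.27 with Mkl1 siRNA. It was higher by 0.55 with the knockdown, a ratio of 1.47, and by 0.14 with the inhibitor. Fh1 lay nearest to the median course of the 9 members, at a root mean square distance of 0.0214 over the 4 arrays, and Cs lay farthest, at 0.226. Mdh2, the mitochondrial malate dehydrogenase, had 12.82 with DMSO, 12.92 with Y-27632, 12.79 with control siRNA and 13.10 with Mkl1 siRNA. The controls were 0.02 apart, and Mdh2 was higher by 0.31 with the knockdown and 0.11 with the inhibitor. Its second probe set stood at 0.36 and 0.17. Suclg1 and Fh1 were each read by 1 probe set, so no second reading exists for them.

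**Figure D2:**
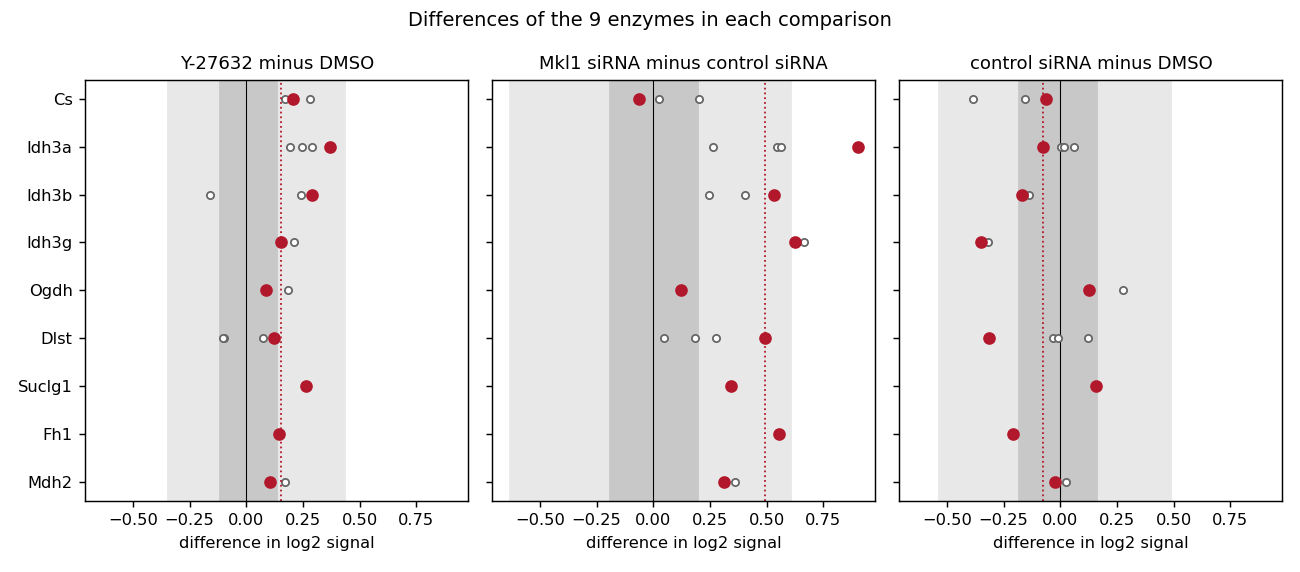
Difference in log2 signal for each gene in the 3 comparisons; red points are the probe set of highest mean, open points the other probe sets, and the dotted line the median of the 9. Dark and light grey bands hold the middle 50% and 90% of the 11600 analysed genes, and with Mkl1 siRNA Idh3a and Idh3g lie beyond the light band.

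Over single probe sets, 21 of 22 stood above control siRNA with the knockdown and 19 of 22 above DMSO with the inhibitor. Among those that passed the filter these were 19 of 20 and 18 of 20, where 51.1% and 49.9% of all 20477 such probe sets were above 0. The probe sets of 1 gene read the same RNA and are not replicates.

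The control arrays differed for several members. Control siRNA minus DMSO had a median of -0.08 over the 9, with 2 of 9 above 0 (Ogdh and Suclg1) against 48.5% of analysed genes, and a range of -0.35 to 0.16. The Mkl1 siRNA difference was larger in size than this control difference for 8 of 9 members, against 54.8% of analysed genes, and the Y-27632 difference for 5 of 9, against 39.5%. With the control arrays exchanged, the median was 0.29 for Mkl1 siRNA minus DMSO, with 8 of 9 above 0 against 49.1% of genes and only Idh3a at least 1.5-fold higher, against 7.4%. For Y-27632 minus control siRNA the median was 0.35, with 8 of 9 above 0 against 52.4%.

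The 2 treatment comparisons share no array. The knockdown difference was the larger one for 8 of 9 members, by 0.04 for Ogdh to 0.53 for Idh3a, where 50.8% of analysed genes had that order, and Cs was the exception at -0.27. Which treatment stood further from its control depended on the control array: with the exchanged controls the medians were 0.29 for the knockdown and 0.35 for the inhibitor. Whether these treatments differ beyond the spread between cultures could not be tested with 1 array each.

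**Figure D3:**
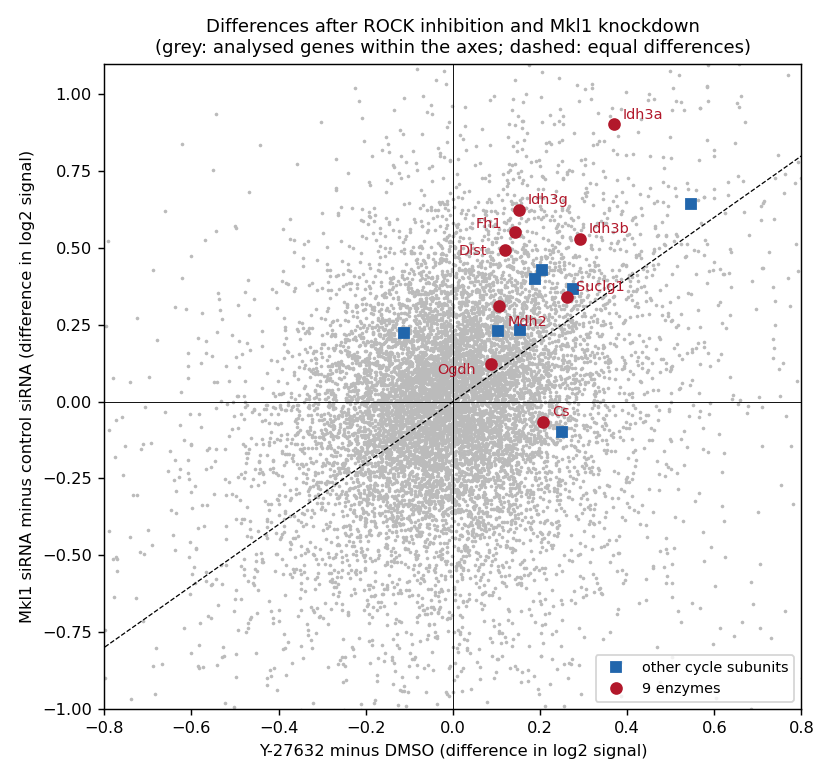
Difference with Mkl1 siRNA against difference with Y-27632, both in log2 signal, for the 9 enzymes (red), 8 other subunits of the cycle (blue) and the analysed genes that fall within the axes (grey); the dashed line marks equal differences. All 9 enzymes lie right of 0, and 8 of them lie above the dashed line.

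A list of other subunits of the cycle gave 8 measured genes. They stood on the same side as the members, 7 of 8 above control siRNA with a median of 0.30 and 7 of 8 above DMSO with a median of 0.20. Of analysed genes, 50.1% and 50.4% were above 0 in these comparisons. Dld, the shared last enzyme of the dehydrogenase complexes, was furthest up in both, at 0.64 with the knockdown and 0.55 with the inhibitor, and the only one at least 1.5-fold higher with the knockdown. Its 2 probe sets disagreed with the knockdown, at -0.10 and 0.64. Suclg2, the beta partner of Suclg1 in the GTP-forming ligase, stood at 0.43 and 0.20, and Sucla2, the partner in the ATP-forming ligase, at 0.23 and 0.10. Of the succinate dehydrogenase subunits, Sdha, Sdhb and Sdhd were higher with the knockdown by 0.40, 0.23 and 0.37, while Sdhc differed by -0.10, and with the inhibitor all 4 were higher by 0.15 to 0.28. The 4 Sdha probe sets ran from -0.31 to 0.19 with the inhibitor, and the values given are those of the strongest. Idh2, the NADP-dependent mitochondrial isocitrate dehydrogenase, differed by 0.22 with the knockdown and -0.11 with the inhibitor, unlike the 3 subunits of the NAD-dependent enzyme. Both treated arrays were above both controls for 3 of these 8, against 17.2% of analysed genes.

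Genes for pyruvate entry were divided. Of 12 measured, 7 were above and 5 below control siRNA, with a median of 0.21, and the counts with the inhibitor were the same, also with a median of 0.21. In the pyruvate dehydrogenase complex, Pdhb, Dlat and Pdhx were at least 1.5-fold higher with the knockdown, at 0.78, 0.69 and 0.67, while Pdha1, the other subunit of its first enzyme, differed by -0.17. With the inhibitor these 4 stood at 0.32, 0.24, 0.58 and -0.10. The mitochondrial pyruvate carrier Mpc1 was furthest up with the inhibitor, at 0.64. The kinases that switch the complex off differed in sign. With the knockdown Pdk1, Pdk3 and Pdk4 differed by -0.55, -0.23 and -0.15, while Pdk2 was higher by 0.43. With the inhibitor Pdk3 and Pdk4 differed by -0.30 and -0.56, while Pdk1 and Pdk2 were higher by 0.19 and 0.32. The Pdk2 signals, 5.81 to 6.24 over the arrays, lay close to the filter level. For Pdk1 control siRNA was itself below DMSO, by -1.10.

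Of 11 genes on the array that feed or drain the cycle 10 passed the filter, all but Pck1. Their medians were 0.02 with the knockdown and 0.05 with the inhibitor, but 2 of the 10 stood further up than any member. Pcx, pyruvate carboxylase, was higher by 2.14 with Mkl1 siRNA and by 1.86 with Y-27632, and Slc25a10, the mitochondrial dicarboxylate carrier, by 1.86 and 1.69 on its strongest probe set and by 1.23 and 0.79 on the other. Me3, a mitochondrial malic enzyme, differed by -0.79 and -0.58 and was the only one at least 1.5-fold lower with the knockdown; its control siRNA array was also below DMSO, by -1.35. The aspartate aminotransferase Got1 differed by -0.23 and -0.34, and Pck2, which makes phosphoenolpyruvate from mitochondrial oxaloacetate, by -0.25 and -0.36, with control siRNA below DMSO by -1.14. The carrier Slc25a11, which exchanges alpha-ketoglutarate for malate, was higher by 0.46 with the knockdown and 0.07 with the inhibitor.

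The cytosolic counterparts of the cycle had medians of 0.47 with the knockdown and 0.54 with the inhibitor over 5 genes. Idh1, the cytosolic NADP-dependent isocitrate dehydrogenase, was higher by 1.74 and 0.70, and both its probe sets gave 1.66 to 1.74 with the knockdown. Aco1 was higher by 0.74 and 0.76 on its strongest probe set, with the 3 probe sets running from -0.53 to 0.74 with the knockdown. Mdh1 was higher by 0.47 and 0.54, over 5 probe sets from -0.17 to 0.67 with the knockdown. Acly, which splits exported citrate, differed by -0.29 and 0.22, and Me1, which makes NADPH from malate, by 0.07 and 0.26. For both, control siRNA was itself above DMSO, by 0.29 for Acly and 0.49 for Me1. Against DMSO, the Mkl1 siRNA array differed by -0.001 for Acly and 0.56 for Me1. Lipoic acid, the cofactor carried by Dlst, depends on Lias, Lipt1, Lipt2 and Nfu1; with the knockdown these stood at 0.19, -0.12, 0.50 and 0.15, and with the inhibitor at 0.19, 0.13, 0.23 and -0.05.

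**Figure D4:**
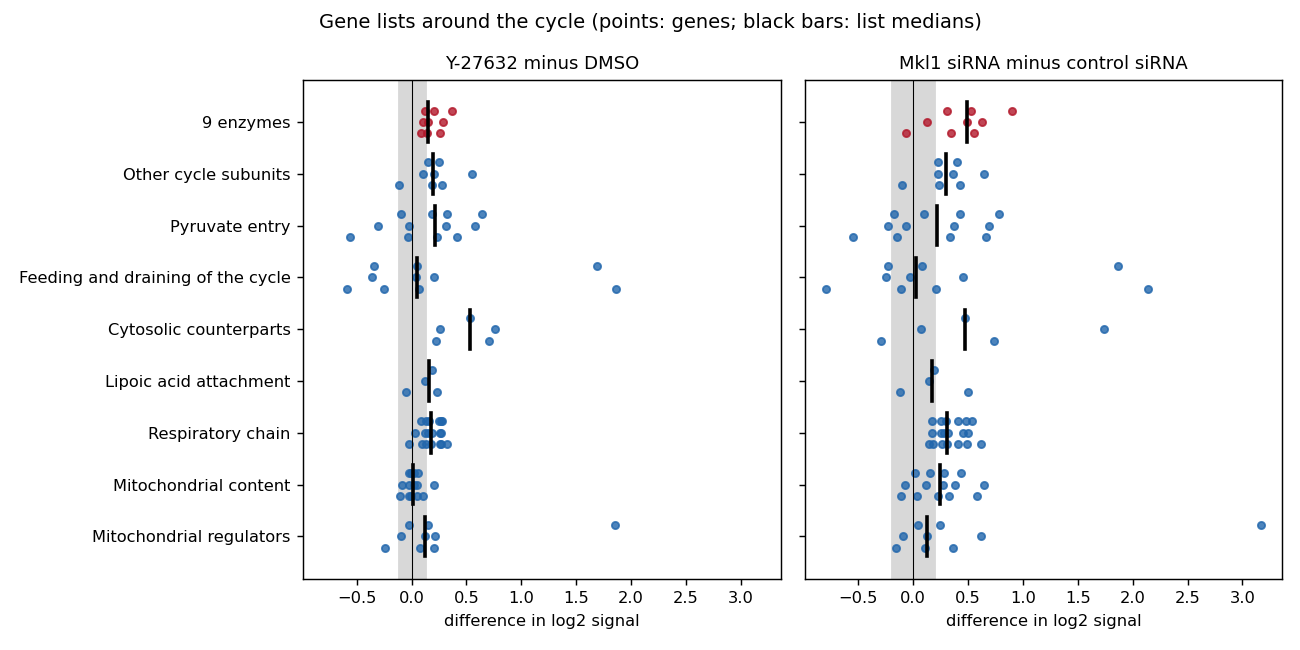
Difference in log2 signal for the genes of 9 lists in both treatment comparisons, 1 point per gene with a black bar at the list median; the grey band holds the middle 50% of all analysed genes. The red points of the 9 enzymes have medians of 0.49 (Mkl1 siRNA) and 0.15 (Y-27632), and the far points are Pcx, Slc25a10, Idh1 and, among regulators, Ppargc1b.

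Respiratory chain genes, which use the electrons that the cycle delivers, stood on the same side as the members. All 19 measured were above control siRNA with the knockdown, from 0.15 to 0.62 with a median of 0.30, and 18 of 19 were above DMSO with the inhibitor, with a median of 0.18. Over all analysed genes 50.1% were above control siRNA with the knockdown and 50.4% above DMSO with the inhibitor. Both treated arrays were above both controls for 17 of the 19 respiratory chain genes, against 17.2% of analysed genes. Cyc1, cytochrome c1, was the only one at least 1.5-fold higher with the knockdown, at 0.62. Uqcrc1, a core subunit of the same complex, was the only one below DMSO with the inhibitor, at -0.02. With Mkl1 siRNA set against DMSO, all 19 were above 0 with a median of 0.35, against 49.1% of analysed genes. Genes for mitochondrial import, channels, chaperones and inner membrane structure differed less. Of these, 12 of 14 were above control siRNA with a median of 0.25, led by the chaperonin Hspd1 at 0.65. The protease subunit Clpp was lowest at -0.11. Against DMSO only 8 of the 14 were higher with Mkl1 siRNA, with a median of 0.08, and control siRNA was below DMSO for 10. With the inhibitor 7 were above and 7 below DMSO, with a median of 0.01, from -0.10 for Phb2, a prohibitin, to 0.21 for Immt, which shapes the inner membrane. The channel genes Vdac1 and Vdac3 stood at 0.01 and -0.07 with the knockdown. Whether the members differ from these lists was not tested.

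Among regulators of mitochondrial genes 9 of 10 passed the filter. Ppargc1b, a coactivator of oxidative metabolism genes, was at 5.94 with DMSO, 7.79 with Y-27632, 5.73 with control siRNA and 8.89 with Mkl1 siRNA, or 1.85 and 3.17 above its controls on 1 probe set. The one that did not pass, its relative Ppargc1a, stayed below it on all arrays. Tfb1m, a mitochondrial transcription factor relative, was higher by 0.62 with the knockdown and the nuclear receptor Esrra by 0.36, with -0.02 for Esrra with the inhibitor. Gabpa and Gabpb1, the subunits of GABP, differed by -0.16 and 0.11 with the knockdown, and Nrf1 by 0.04. The list medians were 0.12 in both comparisons.

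Fat cell markers stood higher with both treatments. On their strongest probe sets all 8 (Adipoq, Fabp4, Cidec, Lipe, Pparg, Cebpa, Cd36 and Dgat2) were at least 1.5-fold higher in both comparisons. The medians were 2.45 with the knockdown and 2.89 with the inhibitor. The weaker of the 2 Lipe probe sets differed by -0.25 with the knockdown and -0.16 with the inhibitor. With Y-27632 set against control siRNA, 7 of 8 were at least 1.5-fold higher, with Cebpa short of it at 0.53. The summed linear signal of the 8 markers was 8895 with DMSO, 8596 with control siRNA, 35667 with Y-27632 and 39504 with the Mkl1 siRNA. The summed signal of the 9 cycle enzymes was 24896, 23417, 28359 and 30289.8 in the same order. Such sums are weighted toward the brightest probe sets, so they are read across arrays within a list and not between lists. Fibroblast and preadipocyte markers summed to 26968, 28833, 28559.5 and 22123 in that order. All 5 measured were below control siRNA with the knockdown, with a median of -0.39 that Col1a1 led at -1.05. With DMSO as the control for the knockdown, 4 of 5 were below it, with a median of -0.07. With the inhibitor 4 of 5 were above DMSO, with a median of 0.06. Most markers of other cell types lay below the filter, namely 3 of 5 skeletal muscle, 3 of 4 endothelial and 3 of 5 macrophage and leukocyte markers. Among these were Myod1, Pecam1, Cdh5, Ptprc and Adgre1. The others passed: Des at 8.01 to 8.17 and Ckm at 6.27 to 6.44 for muscle, and Kdr at 5.58 to 5.79 for endothelium. For macrophages and leukocytes Csf1r passed at 6.38 to 6.45 and Lyz2 at 5.89 to 6.73. The summed linear signal over the 4 arrays was 402 to 422 for the skeletal muscle list, 104 to 141 for the endothelial list and 188 to 241 for the macrophage and leukocyte list. In this bulk RNA a change in the number of fat cells and a change in RNA per cell cannot be told apart, and the part of the fat cell markers in the enzyme differences was not tested. The 3 control probe sets that read 18S ribosomal RNA differed by a median of -0.48 with each treatment and 0.15 between the controls. For Actb, whose control probe sets read RNA quality, the gap of the 3′ over the 5′ signal was larger by 0.26 with the inhibitor and by 0.14 with the knockdown, against -0.03 between the controls. For Gapdh, read in the same way, the gap differed by 0.04 with the inhibitor, 0.03 with the knockdown and -0.15 between the controls. The part of these shifts in the enzyme differences was not tested.

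The 5 genes outside the 9 whose course over the 4 arrays lay closest to the median course of the members were Atp5a1, Trib1, Ss18, Nfrkb and Scai, at root mean square distances of 0.0147 to 0.0204 on the log2 scale. Atp5a1, the alpha subunit of ATP synthase, was the closest, with log2 signals of 12.28 with DMSO, 12.46 with Y-27632, 12.09 with control siRNA and 12.59 with Mkl1 siRNA. Its differences of 0.18 with the inhibitor and 0.49 with the knockdown were close to the member medians of 0.15 and 0.49. The likeness was taken over 4 arrays from 11600 genes, so close matches are found for many courses.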

How the data were processed

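For each probe set the authors deposited a log2 signal per array, which they made with RMA (submitters' processing notes); the RMA version and chip definition were not given in the sources used here. That signals are log2 was judged from their range (2.02 to 14.6; array medians 5.67 to 5.71). Quantile normalisation hides differences in total RNA, and RMA compresses differences near background.

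The platform annotation named the probe sets: of 45101, 34958 had 1 gene symbol, 932 several and 9211 none; 34754 were matched by gene number to a RefSeq table of GRCm38.p6. No gene value used the 64 control probe sets. The probe set of highest mean stood for each of 18193 genes, and 11600 genes passed the filter. Each group had 1 array, so differences have no test; counts are set beside the same count over all analysed genes. Named genes were the 9 members, Mkl1, some of the genes furthest up or down in each list and treatment comparison, genes of short lists and the 5 nearest profiles; Pdk2, Gabpb1 and the fat cell marker Lipe are named outside it, after their values were seen. The members, lists, motifs and thresholds were chosen with earlier results of these data known. Tried as alternatives were a gene's mean over its probe sets, dropping probe sets that may bind several transcripts (_s_at, _x_at and _a_at names), a filter at the 75th percentile (8.08) or none, loess (span 0.3) or median centring of differences, a 2-fold threshold and the other control array. The calculation was tested on simulated data. Python 3.11.15, pandas 2.3.3 and statsmodels 0.14.6 were used.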

Additional observations from a re-analysis of the deposited data

How the results depend on the processing

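No alternative turned the direction of a member median. The yardstick was 0.172, the median size of the control siRNA minus DMSO difference over analysed genes. Loess and median centring moved no median by more than that. Going without a filter or using the 75th percentile filter could not move one, since all 9 members passed either way. The count of members at least 1.5-fold higher with Mkl1 siRNA was 2; it was 1 of 9 with the mean of all probe sets (4.39% of all genes in that setting), 1 of 6 when ambiguous probe sets (those that may bind several transcripts) were dropped (5.63%), 1 of 9 against DMSO (7.4%) and 0 of 9 at 2-fold (1.79%). With the other control array the member median was 0.35 for Y-27632 and 0.29 for Mkl1 siRNA. When probe sets that may bind several transcripts were dropped, 6 members were left (Fh1 and Mdh2 had no probe set left, and the one left for Idh3b was below the filter). Both treated arrays were above both controls for 4 of these 6, and for 6 of 9 with the mean of all probe sets. In the main setting it was 7 of 9, against 17.2% of analysed genes. The share over all genes was not computed in the other settings, so these counts cannot be set against one. Of 171 single-member differences recomputed, 154 moved by less than the yardstick without changing sign, 10 moved further and 7 changed sign. The 154 include 27 without a filter and 27 with the 75th percentile filter, which could not move. Nor could a member with 1 probe set move under the mean. The same holds for a member whose strongest probe set was kept when ambiguous ones were dropped. The 154 are therefore no measure of stability. With the mean of all probe sets Dlst stood at -0.0028 with Y-27632, Cs at 0.055 with Mkl1 siRNA, and Idh3a and Mdh2 at 0.00089 and 0.00099 between the controls. With ambiguous probe sets dropped Cs stood at 0.025 with Mkl1 siRNA and Idh3a at 0.0012 between the controls, and against control siRNA Ogdh stood at -0.041 with Y-27632. The cause of these shifts was not tested. No paired analysis was possible because each group has 1 array, and leave-one-out within a group was not possible for the same reason.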
